A study of Mus musculus with 4 samples.

Results

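The genes described here carry glucose into the cell, break it down to pyruvate, exchange pyruvate with lactate, and bring pyruvate into the mitochondrion for oxidation. A fixed list of 32 mouse symbols was matched by Ensembl identifier, and all 32 were found among the 25567 genes counted. They were measured in single hippocampal nuclei of mice by Smart-seq2, in which each well of a plate holds 1 nucleus, cDNA is made along the whole transcript, and molecules carry no identifier. The study had 4 libraries, 1 for each combination of gate and genotype, all from mice aged 8.5 months. The genotypes were wild type (WT) and Fasn-R1812W, which replaces 1 residue of the fatty acid synthase that makes palmitate. The labels do not say whether 1 or both Fasn copies carried it, nor how many animals gave a library. NeuN+ nuclei were sorted with an antibody to NeuN, a protein of neuronal nuclei. EdU+ nuclei were sorted for EdU, a thymidine analogue built into DNA during replication. Both EdU+ groups had received EdU at 100 mg per kg by injection, 2 times a day over 3 days, and nuclei were taken on day 4. Values are CPM: reads were added up across the nuclei kept in each library and scaled to a total of 1e6 nuclear-gene reads. Comparisons between genes use CPM per kb of exon length.

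Glycolysis splits glucose into pyruvate in a chain of cytosolic enzymes, and most steps have several isoforms encoded by separate genes that tissues use in different proportion. In the brain, Eno2 is known as the neuronal enolase and Aldoc as the aldolase of astrocytes and Purkinje cells, whereas Eno1 and Aldoa are widespread. Lactate dehydrogenase interconverts pyruvate and lactate, monocarboxylate carriers move both across the plasma membrane, and the pyruvate dehydrogenase complex, which its kinases switch off by phosphorylation, commits pyruvate to acetyl-CoA.

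The isoform pairs of enolase, aldolase and lactate dehydrogenase hold both genes that passed the gate test (Eno2 and Aldoc, below) and a pair whose proportion overlapped between gates (Ldha and Ldhb). Their promoter windows are printed here so that the pairs can be set side by side. Each runs from 250 bases before to 50 bases after the most upstream RefSeq start of the gene, on the gene's own strand, in build GRCm38.p6. Capitals mark ACGTG and its reverse complement CACGT, the core of the hypoxia response element, the only letters marked.
Eno1, chr4:150236458-150236757, plus strand: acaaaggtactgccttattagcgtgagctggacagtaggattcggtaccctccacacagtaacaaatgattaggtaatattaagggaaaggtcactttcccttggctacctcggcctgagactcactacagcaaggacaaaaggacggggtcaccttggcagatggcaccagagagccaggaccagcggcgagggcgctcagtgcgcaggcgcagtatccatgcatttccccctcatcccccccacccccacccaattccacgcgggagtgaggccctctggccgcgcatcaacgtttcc
Eno2, chr6:124769624-124769923, minus strand: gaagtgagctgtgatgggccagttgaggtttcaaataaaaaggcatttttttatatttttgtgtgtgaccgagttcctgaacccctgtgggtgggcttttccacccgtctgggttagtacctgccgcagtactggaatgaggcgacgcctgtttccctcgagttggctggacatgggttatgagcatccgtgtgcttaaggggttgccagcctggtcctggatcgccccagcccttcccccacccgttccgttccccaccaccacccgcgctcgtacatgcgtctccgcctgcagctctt
Aldoa, chr7:126800398-126800697, minus strand: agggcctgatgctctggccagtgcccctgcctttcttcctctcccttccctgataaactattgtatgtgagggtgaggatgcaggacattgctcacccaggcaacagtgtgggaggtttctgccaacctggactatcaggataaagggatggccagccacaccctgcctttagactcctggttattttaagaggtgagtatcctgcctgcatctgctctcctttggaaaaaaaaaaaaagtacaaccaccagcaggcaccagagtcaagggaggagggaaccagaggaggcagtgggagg
Aldoc, chr11:78322823-78323122, plus strand: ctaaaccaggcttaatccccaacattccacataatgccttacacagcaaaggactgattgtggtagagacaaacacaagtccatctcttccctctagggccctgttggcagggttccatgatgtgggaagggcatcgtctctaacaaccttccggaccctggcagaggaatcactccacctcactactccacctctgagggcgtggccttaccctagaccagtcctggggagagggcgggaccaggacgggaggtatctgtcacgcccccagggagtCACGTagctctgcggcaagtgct
Ldha, chr7:46845554-46845853, plus strand: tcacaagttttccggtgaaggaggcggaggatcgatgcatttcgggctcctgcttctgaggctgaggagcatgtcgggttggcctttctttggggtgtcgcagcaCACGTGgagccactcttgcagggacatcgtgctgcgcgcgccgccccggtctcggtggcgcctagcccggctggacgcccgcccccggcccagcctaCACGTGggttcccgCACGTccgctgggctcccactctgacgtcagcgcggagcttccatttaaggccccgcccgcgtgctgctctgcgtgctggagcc
Ldhb, chr6:142507908-142508207, minus strand: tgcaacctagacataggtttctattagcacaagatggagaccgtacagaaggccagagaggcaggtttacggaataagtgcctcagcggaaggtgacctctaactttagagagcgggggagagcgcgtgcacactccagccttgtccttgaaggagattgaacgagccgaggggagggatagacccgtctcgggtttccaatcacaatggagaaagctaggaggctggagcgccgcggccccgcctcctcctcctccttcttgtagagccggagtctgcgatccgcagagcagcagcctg
The Ldha window held 5 matches, with each palindromic CACGTG counted on both strands, and the Aldoc window held 1. No match lay in the windows of Eno1, Eno2, Aldoa and Ldhb. Only the most upstream window of a gene was searched. Eno1 and Aldoa each had 3 listed windows, and Aldoc and Ldha each had 2, so their other starts were not examined. A window was found for 30 of the 32 genes. ACGTG on either strand was present in 13 of those 30 (43.3%), against 19.8% of the 26794 genes with a window of the same length. GGGCGG, the GC box, was present in 63.3% against 36.2%, and CCAAT, the CCAAT box, in 43.3% against 38.2%. The 3 motifs were searched separately, and their matches may overlap. Of the 2 genes that passed the gate test below, Aldoc had the ACGTG core and Eno2 did not. Such a match describes letters in a window and is not a measured binding site.

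Library quality differed between the gates and within the EdU+ pair. Nuclei with at least 1000 genes and 50000 reads were kept, which left 314, 301, 167 and 348 of 384 wells of the libraries, in the order WT then Fasn-R1812W for NeuN+, followed by the same genotypes for EdU+. All values given for 4 libraries follow that order. A median kept nucleus held 4395.5, 4417, 1298 and 3006 genes, so EdU+ WT was the shallowest. All 384 index pairs were shared by the 4 libraries, as plate indexes are, and 382 nuclei were stated per library. Summed CPM of 7 general neuron markers was 4811 and 4587 in NeuN+ against 1449 and 1205 in EdU+. Summed CPM of 13 oligodendrocyte precursor markers was 529 and 484 in NeuN+ against 16650 and 13600 in EdU+. The EdU+ label stands for cells that copied DNA, and 12 genes of S and G2/M phase summed to 466 and 420.1 CPM there against 91.0 and 82.2 in NeuN+. In pooled reads, fewer nuclei of a type and less RNA per nucleus cannot be told apart. PCR copies of a molecule were counted separately, so the 95% Poisson intervals cover counting error only; among the 32 genes at 10 CPM or more they reached at most 12.8% to either side, in EdU+ WT.

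Aldoa was the most abundant of the 32 genes per kb of exon in every library, at 295, 394, 253 and 175 CPM per kb. This aldolase cleaves fructose 1,6-bisphosphate into triose phosphates. In both NeuN+ libraries the next genes were Gapdh and Ldhb, a dehydrogenase of glycolysis and a subunit of lactate dehydrogenase. In both EdU+ libraries Ldhb came next, at 169.6 and 92.0 CPM per kb, followed by Aldoc at 126 and 72.5. The lowest was Pdk4, a pyruvate dehydrogenase kinase of fasted tissues, with 1.84 CPM in NeuN+ Fasn-R1812W and no read in the other 3 libraries. Its 3-read limit there is 0.0432, 0.200 and 0.0316 CPM in NeuN+ WT, EdU+ WT and EdU+ Fasn-R1812W. A single nucleus held 99.2% of its reads.

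**Figure D1:**
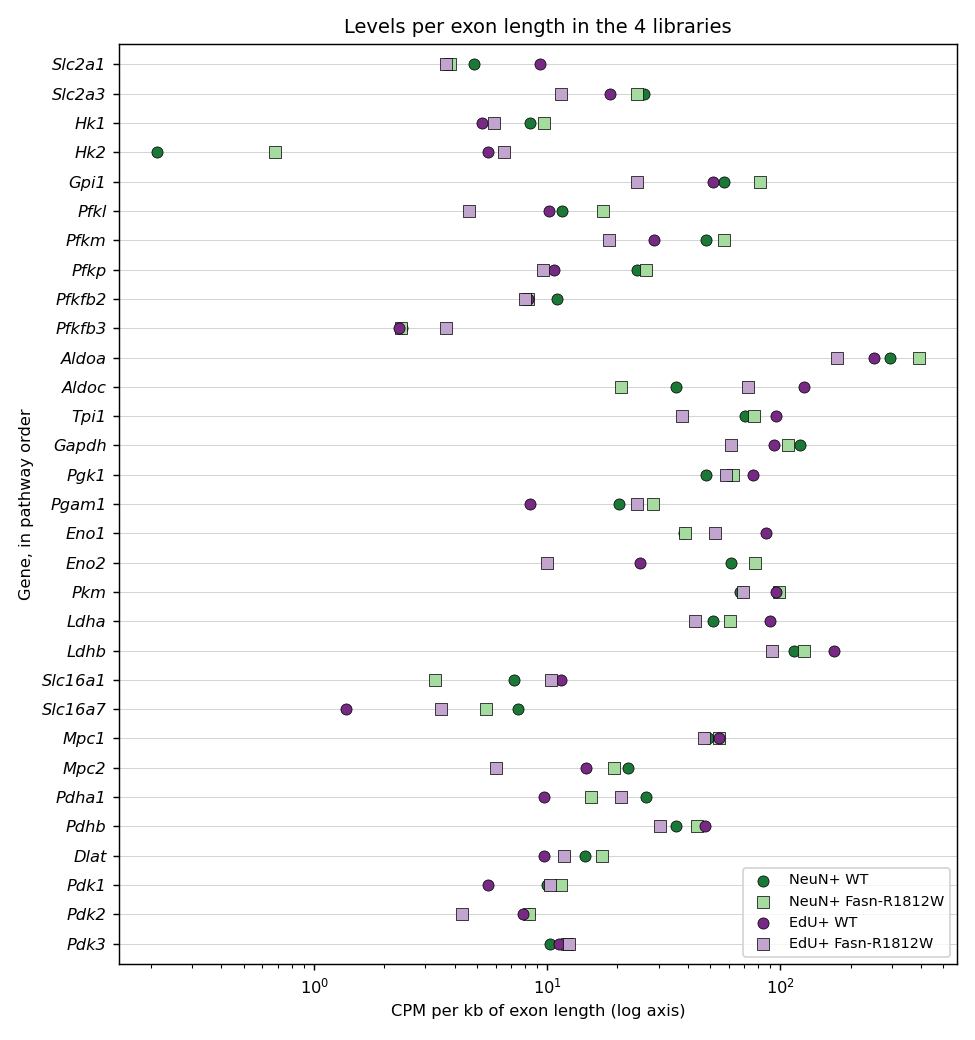
Levels of 31 genes in the 4 libraries, as CPM per kb of exon length on a log axis, 1 point per library; Pdk4, read in 1 library only, is not drawn. Aldoa lies furthest right in all 4 libraries (175 to 394 CPM per kb), Eno2 is separated to the right in NeuN+, and Aldoc and Hk2 are separated to the right in EdU+.

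The gates were compared in 1 edgeR quasi-likelihood fit over the 4 libraries with gate and genotype as terms, with p-values adjusted by Benjamini-Hochberg over 17376 genes. The fit had 2 libraries per gate and 1 residual degree of freedom. No group had a replicate, so its error is the departure of the 4 libraries from additive gate and genotype terms. A gate difference that depends on genotype or library depth enters that error. The p-values do not measure the spread between animals. Of the 32 genes, 31 were tested (Pdk4 was not). Aldoc was higher in EdU+ and Eno2 was lower, so 1 gene passed in each direction. Across all genes tested 3.79% were called higher and 2.86% lower. At an unadjusted p below 0.05 there were 8 of the 31 and 3596 of all genes. The median log2 difference of EdU+ minus NeuN+ was -0.53 over the 31 genes, 21 of them negative, and -0.16 over all genes. In a simulated gate comparison over 16953 genes with the dispersion of these data, the fit recovered 15 of 49 genes raised 4-fold, 2 of 49 raised 2-fold, 0 of 49 lowered to 0.5 and 5 of 47 lowered to 0.25 of their level.

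Aldoc, at chr11:78322968-78327781 on the plus strand of GRCm38, encodes aldolase C. It stood at 117 and 67.7 CPM in the NeuN+ libraries and at 411 and 236 CPM in the EdU+ libraries. Both EdU+ libraries lay above both NeuN+ libraries, and in each gate Fasn-R1812W was the lower. The fitted log2 difference between gates was 1.78 (SE 0.31, edgeR adjusted p = 0.0222). The call was lost without NeuN+ Fasn-R1812W (log2 1.41, adjusted p = 0.157), without EdU+ WT (log2 1.35, adjusted p = 0.0517), and without the genotype term (adjusted p = 0.060). Its partner Aldoa stood at 859, 1148, 736 and 509.9 CPM, with both EdU+ libraries below both NeuN+ libraries. The Aldoa log2 difference was -0.73 (SE 0.34, adjusted p = 0.298). Fam57b, which overlaps Aldoa on the opposite strand, stood at 30.2 to 86.8 CPM, and its reads cannot be told apart from those of Aldoa if counting ignored strand.

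Eno2, at chr6:124760053-124769673 on the minus strand, encodes gamma enolase. It stood at 287 and 367 CPM in NeuN+ and at 117 and 46.8 CPM in EdU+. No EdU+ value reached a NeuN+ value, and the fitted log2 difference was -2.17 (SE 0.46, edgeR adjusted p = 0.0413). The call was lost when the 5% of nuclei with the most genes were left out (adjusted p = 0.0645) and without the genotype term (adjusted p = 0.0576). In EdU+ WT, 1 nucleus carried 38.3% of the Eno2 reads. Eno1, the widespread alpha enolase, lay higher in EdU+, at 207, 210.3, 465 and 283 CPM. Its log2 difference of 0.76 (SE 0.33) did not pass (adjusted p = 0.254). Eno1b, an annotated near-copy of Eno1 in the table, had reads equal to 2.41% of those of Eno1. At a fixed depth of 50000 reads per nucleus, Eno2 was read in 81.2% and 84.7% of NeuN+ nuclei and in 11.98% and 10.06% of EdU+ nuclei. At that depth 29 of the 32 genes (90.6%), Eno1 included, had a lower share in both EdU+ libraries than in both NeuN+ libraries, against 77.9% of all genes with at least 5 CPM in a library. Hk2 was the 1 gene with a higher share in both, against 9.18% of all genes.

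**Figure D2:**
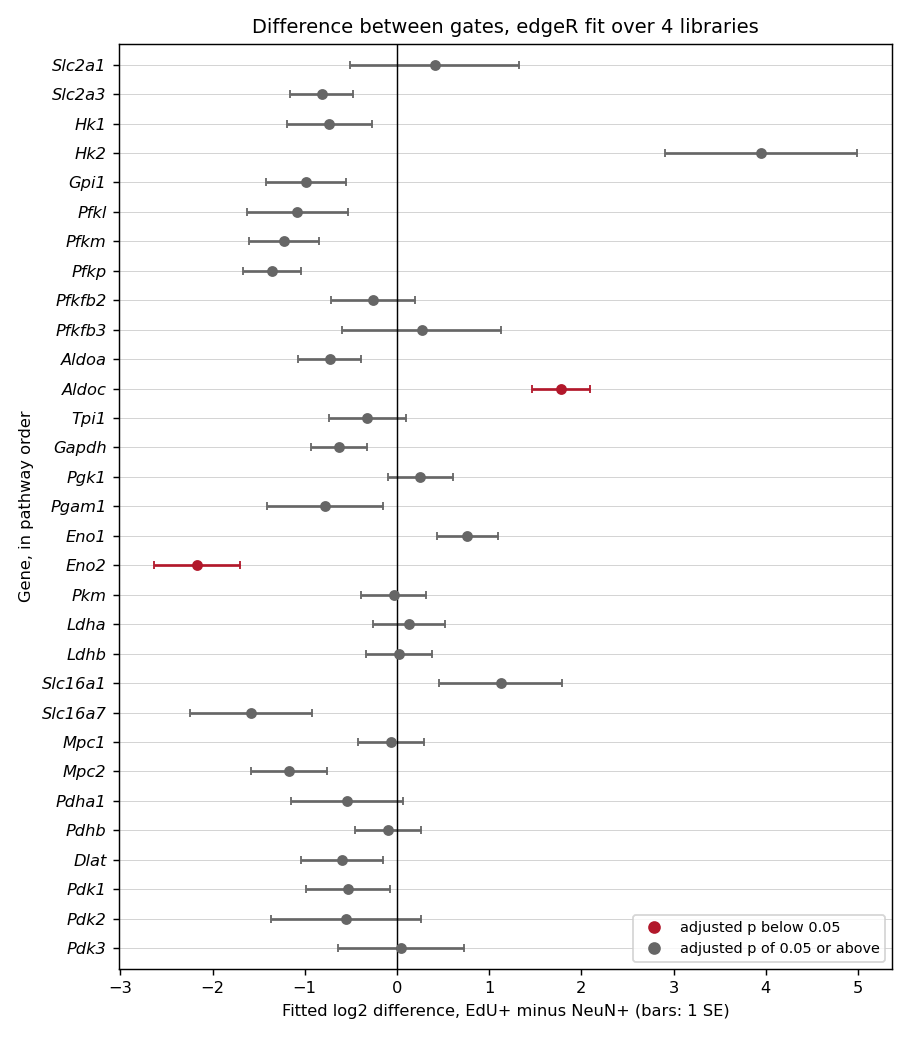
Fitted log2 difference between gates for 31 genes in pathway order, with bars of 1 SE; points right of 0 are higher in EdU+. Red marks an adjusted p below 0.05: Aldoc at 1.78 and Eno2 at -2.17.

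Among the carriers and enzymes of the upper pathway, no gene passed the gate test, and several were close to it. Slc2a1, the glucose carrier of vessels and glia, stood at 17.0, 13.35, 32.5 and 12.9 CPM (log2 0.41, SE 0.91, adjusted p = 0.876). Slc2a3, the neuronal glucose carrier, stood at 187.5, 175, 134 and 82.5 CPM, with EdU+ below NeuN+ (log2 -0.82, SE 0.34, adjusted p = 0.235). Hexokinase traps glucose as its phosphate. Hk1, the brain's main form, stood at 71.8, 82.9, 44.8 and 50.4 CPM (log2 -0.73, SE 0.46, adjusted p = 0.447). Hk2, the inducible form, stood at 1.27, 4.05, 33.3 and 38.9 CPM, all of EdU+ above all of NeuN+ (log2 3.95, SE 1.04, adjusted p = 0.0777). Few nuclei carried it: 1 nucleus held 95.5%, 91.2%, 65.8% and 19.1% of the Hk2 reads of the libraries. Hk2 passed in 6 of 12 alternative analyses, among them the filter of 300 genes and 20000 reads (log2 4.81, adjusted p = 0.0168).

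Phosphofructokinase is the committed step of glycolysis, and its 3 genes were each lower in both EdU+ libraries than in both NeuN+ libraries without passing the test. Pfkl, the liver form, stood at 77.1, 115, 67.7 and 30.9 CPM (log2 -1.08, SE 0.55, adjusted p = 0.339). Pfkm, the muscle form, stood at 161, 192, 95.8 and 61.4 CPM (log2 -1.23, SE 0.38, adjusted p = 0.117). Pfkp, the platelet form, stood at 323, 355, 143 and 128 CPM (log2 -1.36, SE 0.31, adjusted p = 0.0520). Pfkp passed in 8 of 12 alternatives, with log2 differences from -1.44 to -1.31 in all 12. Pitrm1 and Senp1 overlap Pfkp and Pfkm on the opposite strand, at 60.5 to 90.3 CPM and 37.8 to 101 CPM, so reads of these pairs may be mixed. The bifunctional enzymes that set fructose 2,6-bisphosphate, the activator of phosphofructokinase, did not pass either. Pfkfb2 stood at 80.1, 60.2, 60.2 and 58.3 CPM (log2 -0.26, SE 0.46, adjusted p = 0.830). Pfkfb3 stood at 17.9, 17.8, 17.4 and 27.7 CPM (log2 0.27, SE 0.86, adjusted p = 0.924).

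The lactate dehydrogenase genes were at like levels in both gates, within wide errors. Ldha, the subunit that favours lactate production, stood at 169.6, 200.4, 299 and 143 CPM (log2 0.13, SE 0.39, adjusted p = 0.917). Ldhb, the subunit that favours pyruvate, stood at 179, 199, 266 and 144 CPM (log2 0.02, SE 0.36, adjusted p = 0.987). In both genes EdU+ WT was the highest library and EdU+ Fasn-R1812W the lowest, so the gates overlap. Slc16a1, the carrier MCT1 of glia and vessels, stood at 31.8, 14.6, 50.4 and 45.7 CPM (log2 1.13, SE 0.67, adjusted p = 0.421). Slc16a7, the neuronal carrier MCT2, stood at 88.9, 64.9, 16.2 and 41.5 CPM (log2 -1.58, SE 0.66, adjusted p = 0.239). For both carriers the EdU+ and NeuN+ libraries did not overlap in pooled CPM, in opposite directions. In EdU+ WT, Slc16a1 was read in 7 of 167 nuclei, and 1 of them held 52.8% of its reads. As mean CPM per nucleus Slc16a1 stood at 28.3, 15.8, 27.6 and 43.0, so its gates overlapped. Slc16a7 stood at 98.5, 67.4, 17.5 and 42.9 by that measure and did not overlap.

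At pyruvate entry, Pdk1 stood at 77.5, 88.8, 43.4 and 79.5 CPM (log2 -0.53, SE 0.45, adjusted p = 0.595). Pdk2 stood at 26.3, 26.4, 24.9 and 13.6 CPM (log2 -0.55, SE 0.81, adjusted p = 0.789). Pdk3 stood at 26.4, 31.2, 28.9 and 31.8 CPM (log2 0.05, SE 0.68, adjusted p = 0.986). These kinases inactivate the pyruvate dehydrogenase complex. The remaining 11 genes, Gpi1, Tpi1, Gapdh, Pgk1, Pgam1, Pkm, the pyruvate carrier subunits Mpc1 and Mpc2, and the complex subunits Pdha1, Pdhb and Dlat, had gate differences (log2) from -1.17 for Mpc2 (adjusted p = 0.163) to 0.25 for Pgk1 (adjusted p = 0.777). None passed. Over the 32 genes, CPM in both EdU+ libraries lay below both NeuN+ libraries for 14 and above them for 4 (Aldoc, Eno1, Hk2 and Slc16a1). Among all 15462 genes with at least 5 CPM in a library those shares were 29.4% below and 28.9% above.

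Isoform proportions, taken per kb of exon, separated the gates for 5 of 9 isoforms summarised, which were chosen after the data were seen. That count was not taken over families outside the list. In CPM, 28.9% of all genes with at least 5 CPM in a library lay above in both EdU+ libraries and 29.4% below. With 2 libraries against 2, an exact permutation test cannot go below p = 0.333, so the shares are given without a test. Eno2 made up 61.3% and 66.6% of enolase in NeuN+ and 22.3% and 15.9% in EdU+. Aldoc made up 10.8% and 4.995% of aldolase in NeuN+ and 33.2% and 29.3% in EdU+. Hk2 made up 2.46% and 6.52% of hexokinase in NeuN+ and 51.5% and 52.5% in EdU+, and rests on few nuclei, as given above. Slc16a7 made up 51.1% and 62.5% of its carrier pair in NeuN+ against 10.7% and 25.4% in EdU+. Slc2a3 made up 84.2% and 86.4% against 66.7% and 75.6%. In contrast, Ldha was 31.0% and 32.3% of lactate dehydrogenase in NeuN+ and 34.8% and 31.9% in EdU+, a spread of under 4 points over the 4 libraries. Per kb of exon, Pfkm was the largest phosphofructokinase share, at 57.4%, 56.7%, 58.0% and 56.4%. With reads not divided by length the order turned: Pfkp made up 57.6%, 53.6%, 46.6% and 58.2% and Pfkm 28.6%, 28.9%, 31.3% and 27.8%. Shares of Pfkp, Pfkfb3 and Pdk1 overlapped between gates.

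**Figure D3:**
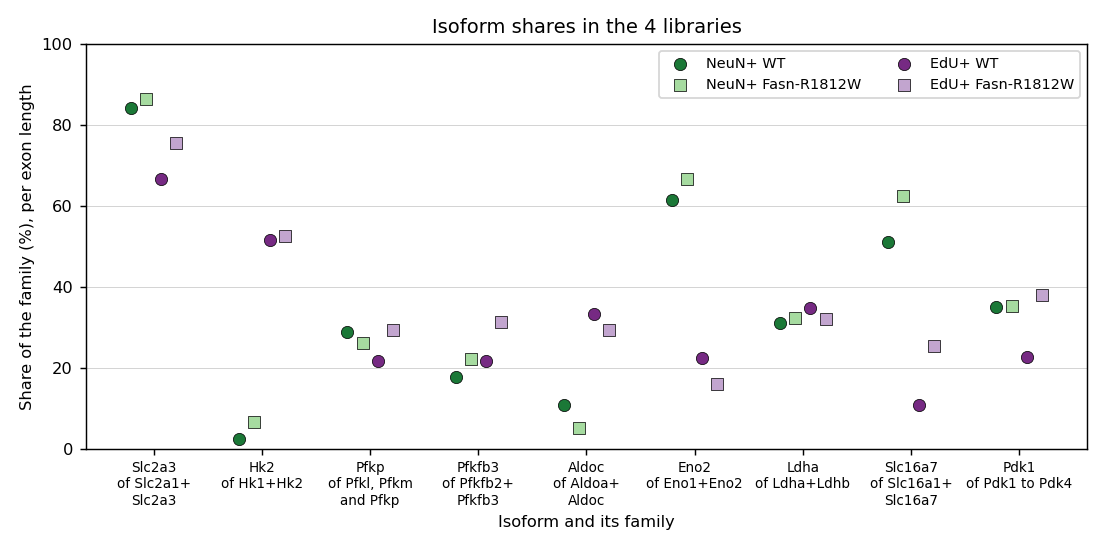
Share of 9 isoforms within their families, per kb of exon length, 1 point per library and genotype. Green NeuN+ and purple EdU+ points are separate for Slc2a3, Hk2, Aldoc, Eno2 and Slc16a7, and lie together for Ldha (31.0% to 34.8%).

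Nuclei were then divided into classes by clustering without the 32 genes and without the wider pathway genes, so the values below did not form the classes. A class carries the name of the marker list that led it, with "-like". Clusters not clearly led by 1 list were left unnamed. They held 71, 75, 21 and 74 nuclei of the 4 libraries, or 22.6%, 24.9%, 12.6% and 21.3% of the nuclei kept. The counts of nuclei in WT and Fasn-R1812W were 133 and 79 for dentate granule neuron-like, 60 and 92 for CA1 pyramidal neuron-like and 42 and 42 for GABAergic interneuron-like. They were 89 and 181 for oligodendrocyte precursor-like, 29 and 11 for committed oligodendrocyte precursor-like and 24 and 38 for neuroblast-like nuclei. The oligodendrocyte precursor-like nuclei came mostly from cluster 5 in WT (72 nuclei) and from clusters 3 and 1 in Fasn-R1812W (75 and 56). CA3 pyramidal neuron-like, microglia-like and leukocyte-like nuclei numbered 13, 31 and 13 in Fasn-R1812W and under 10 in WT, so WT values are not given for them under this filter.

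Eno2 was the larger enolase share in each of the 3 neuron-like classes with both genotypes. Granule-like nuclei had an Eno2 share of 65.0% in WT and 82.3% in Fasn-R1812W, CA1-like nuclei 64.9% and 59.1%, and interneuron-like nuclei 68.2% and 66.5%. CA3-like nuclei, all from Fasn-R1812W, had a lower Eno2 share of 45.4%. Oligodendrocyte precursor-like nuclei had an Eno2 share of 15.9% and 10.9%. Over 6 clustering settings the Eno2 share in the 3 neuron-like classes ran from 56.7% to 82.3%, and in oligodendrocyte precursor-like nuclei from 10.9% to 25.4%. In CPM, Eno2 was 261 and 391 in granule-like nuclei and 85.5 and 34.1 in oligodendrocyte precursor-like nuclei. Of 31 microglia-like nuclei, 1 carried an Eno2 read.

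Aldoc stood highest among the large classes in oligodendrocyte precursor-like nuclei, at 457 CPM in WT and 349 in Fasn-R1812W. Outside the large classes, 4 astrocyte-like nuclei of NeuN+ WT, 1.27% of its nuclei, held 32.6% of its Aldoc reads. In granule-like nuclei it stood at 70.9 and 55.1 CPM, in CA1-like nuclei at 65.6 and 64.6, and in interneuron-like nuclei at 98.4 and 73.9. Its share of aldolase was 33.2% and 35.3% in oligodendrocyte precursor-like nuclei, and 32.2% to 47.6% over the 6 settings. In CA1-like nuclei the Aldoc share ran from 5.36% to 9.62% over the settings and in granule-like nuclei from 3.45% to 12.2%. Interneuron-like nuclei ranged more widely, from 7.40% to 28.8%. Astrocyte markers were also present in the oligodendrocyte precursor-like nuclei, at a sum of 4680 and 3954 CPM. Their part in the Aldoc level was not tested. Microglia-like nuclei had an Aldoc level of 2.45 CPM.

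The Ldha share varied among classes. It was 27.3% and 29.8% in granule-like nuclei, 25.9% and 26.4% in interneuron-like nuclei, and 28.7% and 28.8% in oligodendrocyte precursor-like nuclei. CA1-like nuclei had an Ldha share of 51.6% and 38.5%, but over 6 settings that share ran from 33.9% to 58.1% and overlapped the 15.7% to 40.6% of oligodendrocyte precursor-like nuclei. Leukocyte-like nuclei of Fasn-R1812W had Ldha at 597 CPM and no Ldhb read, and 10 of 13 nuclei carried Ldha. Microglia-like nuclei of the same library had the reverse, Ldhb at 273 CPM in 16 of 31 nuclei and Ldha at 0.701 CPM. Under the filter of 300 genes and 20000 reads both classes were also present in WT. Clustering was run anew there, so a class need not hold the same nuclei under both filters. In leukocyte-like nuclei of Fasn-R1812W, microglia markers summed to 1379 CPM under the stricter filter and 3862 CPM under this one. In unnamed EdU+ nuclei of Fasn-R1812W, leukocyte markers went from 8006 to 63.1 CPM. Leukocyte-like nuclei then had Ldha at 199.8 CPM and no Ldhb read in WT (21 nuclei), and 319.8 CPM of Ldha against 2.43 of Ldhb in Fasn-R1812W (51 nuclei). The 27 WT microglia-like nuclei under that filter had Ldhb at 271 CPM and Ldha at 264 CPM, but 1 nucleus held 99.5% of the Ldha reads and 1 held 91.2% of the Ldhb reads.

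Hk2 and Pdk1 were high in microglia-like nuclei of EdU+ Fasn-R1812W. Hk2 reached 379 CPM there and was read in 19 of 31 nuclei, against 1.24 CPM in oligodendrocyte precursor-like nuclei of the same library. These 31 nuclei, 8.91% of the nuclei kept, held 87.9% of the Hk2 reads of EdU+ Fasn-R1812W. Without them the library's Hk2 level was 5.19 CPM in place of 38.9. In EdU+ WT, oligodendrocyte precursor-like nuclei had 43.2 CPM of Hk2, but 2 nuclei carried it and 1 of them held 99.7% of the reads. Under the filter of 300 genes and 20000 reads, Hk2 stood at 1056 CPM in WT microglia-like nuclei (13 of 27 with a read) and at 399.9 CPM in those of Fasn-R1812W (20 of 30). Summed microglia markers in the pooled EdU+ libraries were 1425 and 4047 CPM, and their part in the Hk2 level of each library was not tested beyond these values. Pdk1 stood at 407 CPM in microglia-like nuclei and made up 90.1% of the kinase reads per kb there. In oligodendrocyte precursor-like nuclei of the same library Pdk3 was the larger, at 77.8%, read in 24 of 181 nuclei. In WT those shares rest on 2 nuclei with a Pdk3 read, 2 with Pdk2 and 6 with Pdk1, and are not given. Neuroblast-like and committed precursor-like nuclei were few, and their shares moved widely with the settings: the Eno2 share of neuroblast-like nuclei ran from 1.35% to 45.5%.

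**Figure D4:**
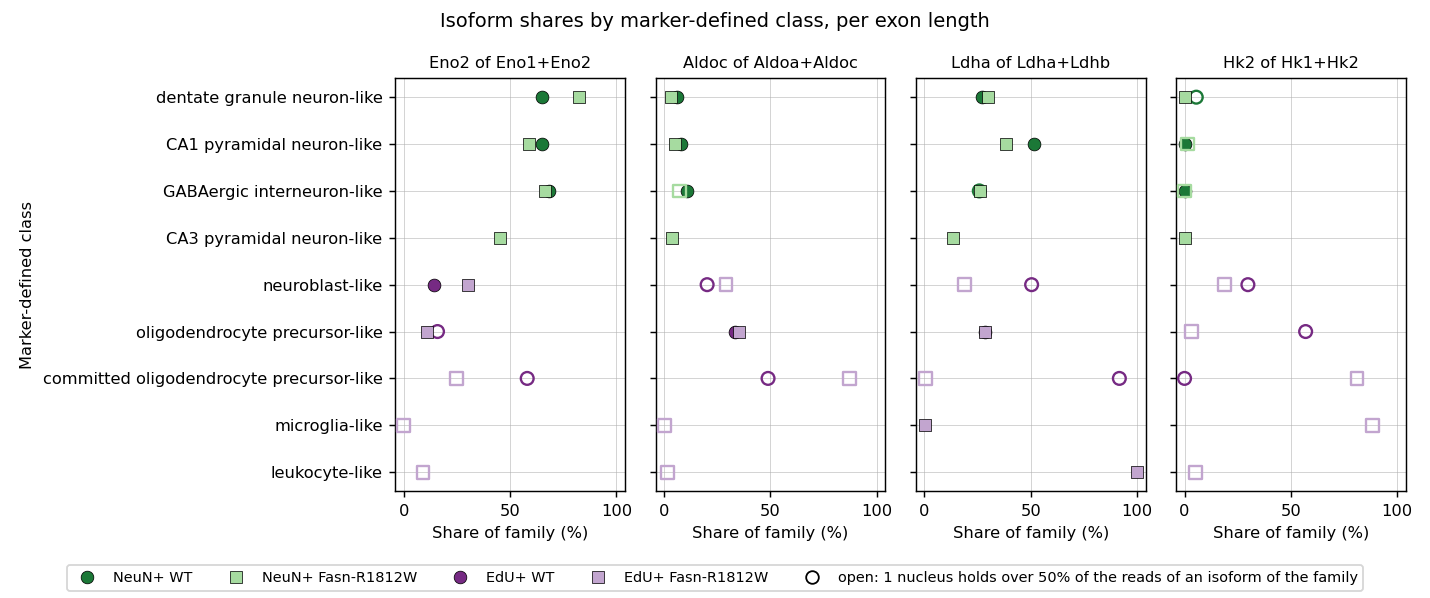
Share of Eno2, Aldoc, Ldha and Hk2 within their families by marker-defined class, per kb of exon length, for classes with at least 10 nuclei in a library; open symbols mark values where 1 nucleus holds over 50% of the reads of an isoform of the family. Neuron-like classes lie at 45.4% to 82.3% for Eno2 and oligodendrocyte precursor-like nuclei at 10.9% and 15.9%; for Ldha, microglia-like and leukocyte-like nuclei lie at opposite ends.

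For genotype, the question was whether these genes differed between Fasn-R1812W and WT within each gate. Each gate had 1 library per genotype, so differences within a gate have no replicate check and no p-value. The coefficient shared by both gates could be tested in the edgeR fit, and 0 of the 31 genes passed in either direction. Of all 17376 genes 0.00576% were called higher and 0.0% lower. At an unadjusted p below 0.05 there were 276 genes, 1 of them from the list, Aldoc (log2 -0.77, SE 0.31, edgeR adjusted p = 0.9999). DESeq2 called 53 genes higher and 11 lower, with 0 of the list.

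In NeuN+ nuclei the genes lay close together between genotypes. The median log2 ratio of Fasn-R1812W over WT, after adding 1 CPM, was 0.16 over the 30 genes with at least 5 CPM, 20 of them above 0, against 0.02 over 13370 genes. It was 0.16 also under the filter of 300 genes and 20000 reads. A gene was counted as apart when the ratio reached 2-fold, among genes that reached 10 CPM in one of the libraries and were read in 10% or more of its nuclei. By that rule 0 of the genes were higher (3.16% of all genes) and 1 was lower (3.03%). The other filter gave 0 higher (2.98%) and 1 lower (2.83%). That gene was Slc16a1, at 31.8 CPM in WT and 14.6 in Fasn-R1812W (log2 -1.08). Aldoc had 117 and 67.7 CPM (log2 -0.78), and Pdha1, the catalytic subunit gene of the pyruvate dehydrogenase complex on the X chromosome, had 99.1 and 57.2 CPM (log2 -0.78). Hk2 and Pdk4 also differed by over 1.5-fold, both at under 5 CPM. Astrocyte markers moved with Aldoc: 13 of 14 were lower in Fasn-R1812W, their sum was 1766 CPM in WT against 754 with Fasn-R1812W, and none was at 0. All 4 nuclei of the NeuN+ cluster led by astrocyte markers came from WT, and they held 32.6% of the Aldoc reads of that library. Without them Aldoc stood at 80.3 CPM in WT against 67.7 with Fasn-R1812W (log2 -0.24). In granule-like nuclei, which do not include those 4, astrocyte markers summed to 839 CPM in WT against 969 with Fasn-R1812W. Neuron types differed as well. Dentate granule neuron markers summed to 2054 CPM in WT and 1318 with Fasn-R1812W, with 2 higher and 9 lower. CA1 pyramidal neuron markers summed to 609 and 873 CPM, with 8 higher and 1 lower. Granule-like nuclei were 42.4% and 26.2% of the nuclei kept. The part of neuron types in the NeuN+ ratios was not tested.

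In EdU+ nuclei the ratios spread more widely and depended on which nuclei were kept. Under the filter of 1000 genes and 50000 reads, 167 WT and 348 Fasn-R1812W nuclei entered, and the median log2 ratio over 31 genes was -0.53, with 9 above 0, against 0.03 over 14257 genes. With 300 genes and 20000 reads, 352 and 376 nuclei entered, and the median was -0.05. Under the first filter 3 genes were at least 2-fold higher (17.3% of all genes) and 6 were at least 2-fold lower (8.05%). Under the second, 1 was higher (15.2%) and 1 was lower (6.95%).

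The 6 lower genes under the first filter came from the length of the pathway. Gpi1, the isomerase after hexokinase, stood at 371, 528, 333 and 157 CPM in the 4 libraries (EdU+ log2 -1.08). Tpi1, which interconverts the triose phosphates, stood at 194, 213, 264 and 105 CPM (EdU+ log2 -1.33). Mpc2, a subunit of the mitochondrial pyruvate carrier, stood at 163, 142, 108 and 44.2 CPM (EdU+ log2 -1.27). In each of the 3, EdU+ Fasn-R1812W was the lowest library. Pfkl had an EdU+ log2 ratio of -1.11, Eno2 -1.30 and Ldha -1.06. With the second filter the ratios of Gpi1, Tpi1, Mpc2, Pfkl, Eno2 and Ldha were -0.40, -0.90, -0.91, -0.58, -0.29 and -0.38, all of the same sign and none at 2-fold. The 3 higher genes were Pgam1, a phosphoglycerate mutase, at 16.6 and 48.0 CPM in EdU+ (log2 1.48) and 40.1 and 56.5 CPM in NeuN+, Slc16a7 at 16.2 and 41.5 CPM (log2 1.31), and Pdha1 at 36.2 and 77.1 CPM (log2 1.07). Pdha1 alone stayed at 2-fold under the second filter, at 17.5 and 77.0 CPM (log2 2.08), while Pgam1 had 0.79 and Slc16a7 0.50. Single nuclei held large parts of the reads: 38.8% of Pgam1 and 37.3% of Pdha1 in WT, and 25.1% and 41.3% of Slc16a7 in WT and Fasn-R1812W. For the lower genes the highest such shares were 39.0% and 25.5% for Pfkl and 38.3% and 22.9% for Eno2. With the nucleus richest in the gene left out of each library, Slc16a7 (0.95), Pfkl (-0.83) and Eno2 (-0.99) were under 2-fold, and the other 6 genes stayed over it. The 13 leukocyte-like nuclei, 3.74% of the nuclei of EdU+ Fasn-R1812W, held 39.0% of its Pdha1 reads and 34.9% of its Pgam1 reads. WT had 1 nucleus in that class, with no read of either gene. In that WT nucleus leukocyte markers summed to 176 CPM and committed oligodendrocyte precursor markers to 3416 CPM. Its lack of reads therefore cannot stand for WT leukocytes. Without leukocyte-like nuclei the ratio was 0.50 for Pdha1, 1.003 for Pgam1 and 1.44 for Slc16a7.

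Other genes reached 1.5-fold in EdU+ under the first filter without being counted. Slc2a1 had a log2 ratio of -1.27, Ldhb -0.88, Pdk2 -0.83, Aldoc -0.79, Eno1 -0.72, Slc2a3 -0.70, Pfkm -0.63, Pdhb -0.63 and Gapdh -0.61. Slc2a1 was thus over 2-fold lower but went uncounted because too few nuclei carried it: 2.99% in WT and 4.89% in Fasn-R1812W. Pdhb, the other E1 subunit of pyruvate dehydrogenase, stood at 138, 169.7, 183 and 117 CPM. Gapdh stood at 503, 444, 388 and 254 CPM. Upward ratios were Pdk1 at 0.86 and Pfkfb3 at 0.64. Without its microglia-like nuclei, EdU+ Fasn-R1812W had 47.0 CPM of Pdk1 in place of 79.5, and 18.2 CPM of Pfkfb3 in place of 27.7. EdU+ WT, with all its kept nuclei, had 43.4 CPM of Pdk1 and 17.4 CPM of Pfkfb3. Under the second filter Gapdh was at -0.26, Eno1 at 0.00, Slc2a3 at 0.15, Pdk1 at 0.06, Pdk2 at 0.05 and Pdhb at 0.35. In contrast, Ldhb (-0.88), Slc2a1 (-0.86), Pfkm (-0.97), Aldoc (-0.64) and Pfkfb3 (0.65) kept their sign and stayed over 1.5-fold. For Slc2a1 and Pfkfb3 the first-filter ratios rest on few WT nuclei. In EdU+ WT, Slc2a1 was read in 5 of 167 nuclei. Pfkfb3 was read in 2 of 167, and 1 of them held 63.7% of its reads. Hk1 (0.98), Pdk3 (0.65) and Dlat (0.59) reached 1.5-fold under the second filter only, from 0.17, 0.13 and 0.27 under the first. Dlat, the acetyltransferase of the complex, stood at 71.2, 83.6, 47.5 and 57.4 CPM under the first filter. Hk2 changed sign between the filters, from 0.22 to -1.38, as its WT level went from 33.3 to 103 CPM when shallower nuclei were included. Microglia-like nuclei of WT numbered 3 under the first filter and 27 under the second. Leukocyte markers summed to 279.7 CPM in EdU+ WT and 4913 in EdU+ Fasn-R1812W, and 5 of 12 had no read in WT; astrocyte markers summed to 3737 and 2943 CPM. Their part in the ratios was not tested beyond the values without leukocyte-like nuclei given above for Pdha1, Pgam1 and Slc16a7.

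**Figure D5:**
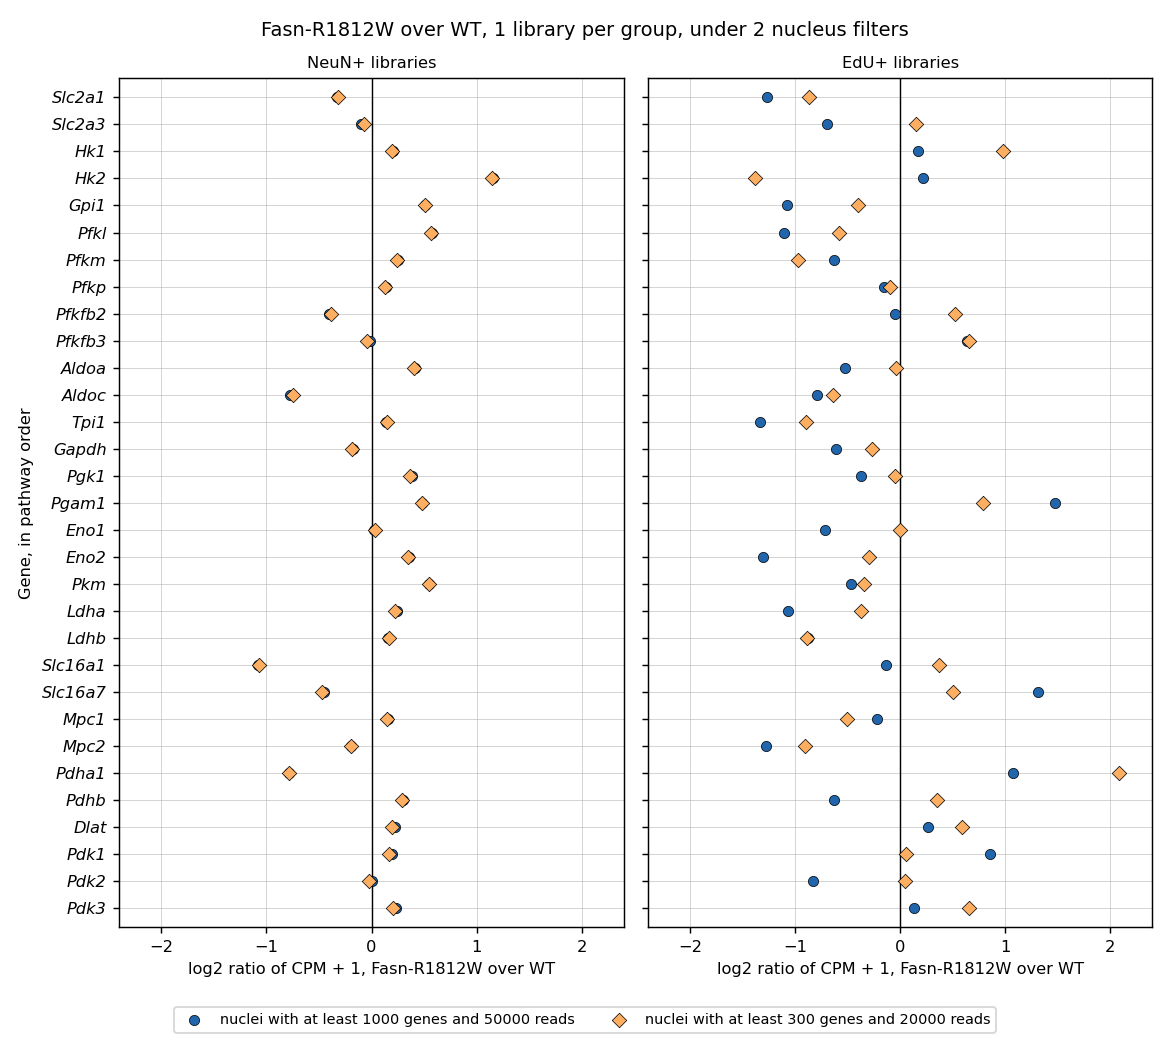
Log2 ratio of Fasn-R1812W over WT for 31 genes in each gate, 1 library per group, under filters of 1000 genes and 50000 reads (blue) and of 300 genes and 20000 reads (orange). Both filters give the same picture in NeuN+, whereas in EdU+ the points of a gene lie apart and the median moves from -0.53 to -0.05.

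The Pdha1 values need a caution on counting. Map3k15 overlaps Pdha1 on the opposite strand, and a stretch of its annotated transcripts matches Pdha1. Map3k15 stood at 68.2, 37.2, 23.2 and 51.2 CPM, and its level moved with that of Pdha1 at 99.1, 57.2, 36.2 and 77.1 CPM in every library. Whether the reads of one were counted for the other cannot be told apart without the strand setting. Of the 32 genes, 8 have a gene on the opposite strand in the table. A stretch of at least 200 bases at 95% identity is shared with annotated transcripts of another gene for 14. For 6 of these 14 such a gene is in the table. For Pfkp and Pdha1 it is the opposite-strand gene itself, Pitrm1 and Map3k15, and not a near-copy.

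Beyond the 32 genes, 83 genes of 7 related lists were examined in the gate fit, and 75 were tested. Of these, 3 (4.00%) were higher in EdU+ and 1 (1.33%) was lower, against 3.79% and 2.86% of all genes tested. The 3 higher genes are from the list of hypoxia and glycolysis control. Epas1, a hypoxia-inducible factor, stood at 3.90, 0.983, 183.5 and 168 CPM (log2 6.43, SE 0.69, edgeR adjusted p = 0.00466). Txnip, an arrestin that limits glucose uptake, stood at 3.70, 2.15, 42.1 and 130.4 CPM (log2 4.68, SE 0.88, adjusted p = 0.0270). Vegfa, the vascular growth factor, stood at 29.8, 27.4, 213 and 279 CPM (log2 3.06, SE 0.37, adjusted p = 0.00724). The lower gene was Pgm2l1, the brain glucose 1,6-bisphosphate synthase, at 348, 270.5, 90.1 and 46.7 CPM (log2 -2.27, SE 0.34, adjusted p = 0.0123). Over the 19 tested genes of the hypoxia list the median log2 difference was -0.21, close to the -0.16 of all genes. No gene passed among 8 other glucose and monocarboxylate carriers, 14 other glycolytic isoforms, 12 other lactate and pyruvate genes, 8 pentose phosphate genes and 3 glycerol phosphate shuttle genes.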

How the data were processed

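Gene counts for single nuclei in 4 libraries were used as deposited: whole-number reads per gene and well, 1 table per library. The submitters' processing notes name Trimmomatic 0.36, STAR 2.5.3a and GRCm38.p5. What counted the reads, on which annotation and with which strand option, is not given in the sources used here. Rows without a gene name held 0.14% of reads and were left out. Nuclei needed 1000 genes and 50000 reads, or 300 and 20000 as an alternative, and no doublet caller was run. Counts were summed per library and tested with edgeR 4.0.16 (TMM, quasi-likelihood, gate and genotype as terms) in R 4.3.3; DESeq2 1.42.0 and limma 3.58.1 were alternatives. The edgeR step was tested on simulated data. Within a gate, genotype ratios are log2 of CPM plus 1, with no test. Exon lengths come from GENCODE M21. Nuclei were clustered per gate with scanpy 1.11.5 (Leiden) without the 32 genes and named from marker lists. Near-copies and other shared stretches were found with blastn 2.17.0.

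The members and lists were chosen with earlier results of these data known. Values in all libraries are given for each of the 32 genes past the gate threshold or in a family with several isoforms, for genes at least 1.5-fold apart between genotypes, and for up to 2 genes each way in the wider lists; Vegfa was named after its values were seen. Of 3 versions of the clustering, the last was kept on its names and leading genes, before the 32 genes were examined by class. The promoters and motifs shown, the 9 isoforms summarised, the class ranges and the levels without microglia-like, leukocyte-like or astrocyte-like nuclei or the richest nucleus were chosen after seeing the data. Alternatives changed the nucleus and gene filters, scaling, test, depth and clustering, and left out each library. Embryonic nuclei were not analysed here.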

Additional observations from a re-analysis of the deposited data

Results flagged for a closer look

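Pdha1 differed in opposite directions between genotypes in the 2 gates. Its log2 ratio of Fasn-R1812W over WT was -0.781 in NeuN+ and 1.07 in EdU+, with 1 library per group. The difference between the gates was not tested, since a fit with an interaction leaves no residual degrees of freedom. Map3k15, on the opposite strand, stood at 68.2 CPM in WT and 37.2 CPM with the substitution in NeuN+, and at 23.2 and 51.2 CPM in EdU+. It thus moved with Pdha1 in both gates, and its part in the result was not tested. Without leukocyte-like nuclei, which held 39.0% of the Pdha1 reads of EdU+ Fasn-R1812W, the EdU+ log2 ratio was 0.50. An unnamed EdU+ cluster led by S100a8, S100a9 and Lyz2 was kept in that value.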

How the results depend on the processing

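Of the 32 genes, 1 was higher and 1 lower in EdU+ in the main gate fit. Higher and lower counts were 2 and 2 with 300 genes and 20000 reads, 2 and 2 with no nucleus filter, 2 and 4 with limma on mean CPM per nucleus, and 2 and 3 with DESeq2. DESeq2 size factors gave 2 lower, gate alone 0 higher, and dropping the 5% richest nuclei by gene number 0 lower. Leaving out each library in turn gave 0 to 3 higher and 1 to 7 lower. Calls over all genes, 659 higher and 497 lower, were 1121 and 836 with 300 genes and 20000 reads, 1099 and 805 with no nucleus filter, 1767 and 1850 with limma, and 1828 and 1803 with DESeq2. They were 1836 and 1898 without EdU+ WT and 1821 and 2550 without EdU+ Fasn-R1812W. The gate difference changed sign for Pfkfb2 with no nucleus filter (0.024) and for Ldha with 300 genes and 20000 reads (-0.20), no nucleus filter (-0.22) and without the 5% of nuclei (-0.0016). It changed sign for Mpc1 under the first pair (0.11 and 0.11) and limma (0.0013), for Pdk2 under limma (0.081), and for Pdk3 under the first pair (-0.21 and -0.23). With each library left out, ranges that crossed 0 were -0.24 to 1.03 for Slc2a1, -0.10 to 0.63 for Pfkfb3, -0.96 to 0.31 for Tpi1, -0.31 to 0.23 for Pkm, -0.38 to 0.63 for Ldha, -0.39 to 0.43 for Ldhb, -0.15 to 0.0092 for Mpc1, -0.39 to 0.18 for Pdhb and -0.085 to 0.14 for Pdk3. The NeuN+ genotype median of 0.16 was 0.13 with 2000 genes and 100000 reads, 0.18 without the 5% of nuclei and 0.13 with nuclei thinned to 50000 reads. The EdU+ median of -0.53 was -0.053 with 300 genes and 20000 reads, -0.041 with no nucleus filter, -0.49 with TMM scaling and -0.50 with no minimum CPM. With 2000 genes and 100000 reads it was 0.64, and ratios were 3.75 for Slc2a1, 5.06 for Pfkl and 2.59 for Eno2, with 5 EdU+ WT nuclei left. In points of EdU+ minus NeuN+ share, Slc2a3 was -8.80 and Hk2 39.9 with reads not divided by length. With mean CPM per nucleus Hk2 was 51.1 and Pfkp -7.92. With no nucleus filter and with 300 genes and 20000 reads, Hk2 was 64.1 and 64.1, Ldha -3.31 and -3.31, and Pdk1 7.74 and 7.71, the last 2 genes with changed sign. The cause was not tested. The shallow EdU+ WT library limits the precision of EdU+ ratios. No paired analysis was possible because each group has 1 library and the labels give no replicate numbers.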
